A study of Mus musculus with 6 samples.

Results

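Receptors for survival and homing signals of the bone marrow niche were followed in DP42 cells, a mouse line of multiple myeloma, a cancer of plasma cells. The set holds the receptors for BAFF, APRIL, CD40 ligand, IL-6, IGF-1 and CXCL12, and was defined by gene symbol, with no measured value in the rule, though earlier results of these data were known when it was drawn up: Tnfrsf17, Tnfrsf13b, Tnfrsf13c, Cd40, Il6ra, Il6st, Igf1r and Cxcr4. All 8 genes were measured, among 22180 genes in all, each by 1 probe set naming that gene only. The myeloma cells were grown for 24 h alone, with mouse B cells, which the design text calls the control, or with mouse neutrophils, which the labels write as "neutrophils (IMC)" or as myeloid cells. Co-cultured populations were then separated by flow sorting, and total RNA of the myeloma cells was hybridised to an Affymetrix array, with 2 arrays in each of the 3 groups. The labels give no genotype, drug or age for the partner cells and name no separate cultures behind the 2 arrays of a group. The p-values below therefore rest on a spread between arrays that may be technical only.

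Plasma cells and the myeloma cells that arise from them depend on signals from their niche. BAFF and APRIL, cytokines of the TNF family that myeloid cells of the marrow secrete, bind BCMA (Tnfrsf17), TACI (Tnfrsf13b) and, for BAFF, the BAFF receptor (Tnfrsf13c), and these receptors and CD40 signal through TRAF adaptors to NF-kB. IL-6 binds its receptor chain (Il6ra), which pairs with gp130 (Il6st) to activate JAK kinases and STAT3, while the IGF-1 receptor is a tyrosine kinase upstream of PI3 kinase and AKT, and CXCR4 is the G protein-coupled receptor by which CXCL12 holds plasma cells in the marrow.

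To show the regulatory sequence of the genes with the largest differences, the 250 bases before the RefSeq start are given for Tnfrsf17, Igf1r and Tnfrsf13c, 5′ to 3′ on the gene's strand in build GRCm38.p6. Of the 8 genes, 7 had a window in the RefSeq table. Capitals mark the core of the interferon-stimulated response element (GAAA, any 2 bases, GAAA) in Tnfrsf17, and GGGCGG, a GC box, in Igf1r and Tnfrsf13c, on either strand.
Tnfrsf17, chr16:11313559-11313808, plus strand: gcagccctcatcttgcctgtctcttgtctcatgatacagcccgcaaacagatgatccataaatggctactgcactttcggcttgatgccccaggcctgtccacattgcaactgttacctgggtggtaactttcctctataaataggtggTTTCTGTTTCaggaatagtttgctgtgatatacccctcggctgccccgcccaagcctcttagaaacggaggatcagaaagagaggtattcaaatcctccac
Igf1r, chr7:67952007-67952256, plus strand: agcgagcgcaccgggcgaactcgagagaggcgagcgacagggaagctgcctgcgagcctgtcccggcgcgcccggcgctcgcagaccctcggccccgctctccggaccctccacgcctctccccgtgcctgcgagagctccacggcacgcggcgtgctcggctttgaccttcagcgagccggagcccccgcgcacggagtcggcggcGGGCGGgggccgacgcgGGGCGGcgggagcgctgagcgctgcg
Tnfrsf13c, chr15:82224381-82224630, minus strand: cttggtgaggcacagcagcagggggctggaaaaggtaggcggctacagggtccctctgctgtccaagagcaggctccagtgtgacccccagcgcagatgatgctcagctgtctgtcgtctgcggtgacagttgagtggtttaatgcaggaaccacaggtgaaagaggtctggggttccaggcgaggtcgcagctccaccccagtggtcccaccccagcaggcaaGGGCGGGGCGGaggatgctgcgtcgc
The element in Tnfrsf17 is read on the opposite strand (TTTCTGTTTC), from 101 to 92 bases before the start, and 2.98% of the 32851 windows in the table hold such a match. No other of the 7 receptor windows held it. The GC box was found in 5 of the 7, Cxcr4, Igf1r, Il6st, Tnfrsf13c and Tnfrsf17, against 32.7% of all windows, and the 2 boxes of Tnfrsf13c share 1 base. GC content was 77.6% in the Igf1r window, with 42 CpG dinucleotides, 63.2% in that of Tnfrsf13c, with 10, and 49.2% in that of Tnfrsf17, with 5. TTCNNNGAA, the STAT-binding GAS motif, and the kB consensus motif were in none of the 7, and in 7.02% and 3.90% of all windows. A match is a string of letters, and binding was not measured.

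Values are on the log2 scale of RMA, a method that removes background, puts arrays on a common scale and gives 1 value per probe set. The 2 B-cell arrays were the least alike of the 3 pairs, at r = 0.992 across genes against 0.997 in each other pair. B-cell replicate 1 correlated at 0.996 and 0.995 with the neutrophil arrays and at 0.994 and 0.995 with the alone arrays, whereas replicate 2 correlated at 0.987 and 0.984 with the neutrophil arrays and at 0.995 with both alone arrays. These values do not say which of the 2 is the better B-cell sample. The receptor medians and calls and the median of all signalling genes are therefore also given without each. Counts of arrays that do not overlap and counts of list genes are given with both B-cell arrays only. The brighter genes, taken as those not under the median of mean signal, differed by a median of 0.13 between neutrophil and B-cell co-culture and of 0.11 between neutrophil co-culture and culture alone, against 0.01 and 0.02 over all genes. The lower quartile of the brighter genes' differences was 0.04 and 0.02, so most of them lay above 0 in both neutrophil comparisons. Of the receptor genes, 7 are among the brighter ones, so their differences and the counts above 0 are read beside these values. Plasma cell markers (10 of 11 measured) had mean levels of 8.99 and 9.04 alone, 9.10 and 8.99 in B-cell co-culture, then 9.07 and 9.08 in neutrophil co-culture.

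Markers of the partner cells were read beside the receptors, because B cells carry Tnfrsf13c and Cd40 and neutrophils carry Il6ra and Cxcr4. Mature B cell markers (15 of 17 measured) averaged 9.49 and 9.45 alone, 9.46 and 9.47 in B-cell co-culture, then 9.47 and 9.48 in neutrophil co-culture. Neutrophil markers (21 of 22) averaged 6.74 and 6.81 alone, 6.78 and 6.88 in B-cell co-culture, then 7.11 and 7.14 in neutrophil co-culture. Of the 21, 1 was called higher against B cells and 5 against culture alone, beside 0.0496% and 1.49% of all genes called in either direction. Against B cells 16 lay above 0 and 5 below, and against culture alone 18 above and 3 below. The marker with the smallest p in both neutrophil comparisons was the granule protein gene Ngp. It stood at 5.57 and 5.76 alone, 5.93 and 6.11 in B-cell co-culture, then 7.27 and 7.70 in neutrophil co-culture. No marker is listed at 0 on these arrays, and 2 of the 21 lay below the lower quartile of every array, the neutrophil surface antigen gene Ly6g among them. Monocyte and macrophage markers averaged 6.96 to 7.12, with 1 of 11, Ly6c2, called higher with neutrophils in both comparisons, T and NK cell markers 7.32 to 7.49 and dendritic cell markers 7.52 to 7.73. The part of neutrophil RNA in the receptor values was not tested, and fewer cells of a type and less RNA per cell cannot be told apart in such bulk samples.

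None of the 8 receptor genes passed the test in any of the 3 comparisons. Their differences ran from -0.31 to 0.28 between neutrophil and B-cell co-culture and from -0.21 to 0.30 between neutrophil co-culture and culture alone, and no 95% interval of the 24 differences reached 1.5-fold in either direction. The furthest bounds were 1.48-fold up for Tnfrsf13c and 1.47-fold down for Tnfrsf17 (neutrophils against B cells), intervals that are not adjusted for the number of genes. Without neutrophil replicate 1 only 4 of the 8 intervals against B cells stayed within 1.5-fold, and without B-cell replicate 1 only 5 did. The genes furthest from 0 were Igf1r, higher with neutrophils than alone, and Tnfrsf17, lower with neutrophils than with B cells.

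**Figure D1:**
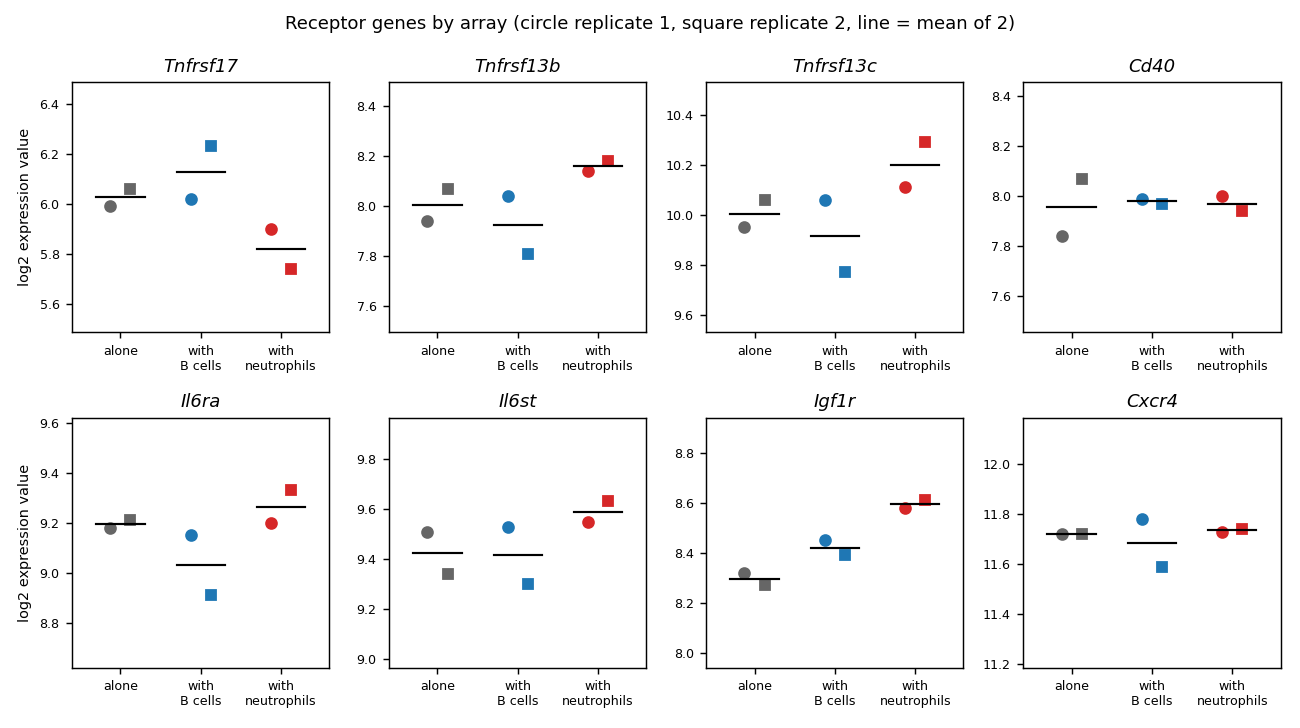
Log2 expression values (y axis, the same span of 1 unit in every panel) of the 8 receptor genes in the 3 culture groups (x axis), 1 point per array and a line at the mean of the 2 arrays. Both neutrophil arrays lie lowest for Tnfrsf17, at 5.90 and 5.74, and highest for Igf1r, at 8.58 and 8.61.

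Tnfrsf17 encodes BCMA, the receptor that sustains long-lived plasma cells. It stood at 5.99 and 6.06 in cells cultured alone, at 6.02 and 6.23 in B-cell co-culture, then 5.90 and 5.74 in neutrophil co-culture. The neutrophil arrays were the lowest of the 6 and overlapped neither other group, whereas the alone and B-cell arrays overlapped. The difference was -0.31 ± 0.11 (SE) against B cells, 1.24-fold lower (adjusted p = 0.208, limma), and -0.21 ± 0.11 against culture alone (adjusted p = 0.357). With quantile normalisation the difference was -0.14 against B cells and -0.04 against culture alone. All 6 values lay below the lower quartile of their array, which ranged from 6.20 to 6.41, so a signal above background was not shown. A difference so low on the scale may be compressed, which was not tested. No other receptor gene lay that low on any array.

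Tnfrsf13b encodes TACI, a receptor for both BAFF and APRIL. Its values were 7.94 and 8.07 alone, 8.04 and 7.81 in B-cell co-culture, then 8.14 and 8.18 in neutrophil co-culture. The neutrophil arrays were the 2 highest, and the lowest was B-cell replicate 2. The difference was 0.24 ± 0.11 against B cells (adjusted p = 0.260) and 0.16 ± 0.11 against culture alone (adjusted p = 0.457).

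Tnfrsf13c encodes the BAFF receptor, the main BAFF receptor of mature B cells. It stood at 9.95 and 10.06 alone, 10.06 and 9.77 in B-cell co-culture, then 10.11 and 10.29 in neutrophil co-culture, above the upper quartile of all 6 arrays. The order of the arrays was close to that of Tnfrsf13b, with both neutrophil arrays on top and B-cell replicate 2 at the bottom. The difference was 0.28 ± 0.12 against B cells, with a 95% interval from 0.00 to 0.57 (adjusted p = 0.251), and 0.19 ± 0.12 against culture alone (adjusted p = 0.426).

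Cd40 encodes the receptor by which T cells help B cells through CD40 ligand. Its 6 values ran from 7.84 to 8.07, and both of these extremes were alone arrays. Between them lay the B-cell arrays, at 7.98 ± 0.01 (SD, n = 2), and the neutrophil arrays, at 7.97 ± 0.04 (SD, n = 2). The difference between neutrophil and B-cell co-culture was -0.01 ± 0.11, with a 95% interval from -0.25 to 0.23.

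Il6ra encodes the chain that binds IL-6 itself. It stood at 9.18 and 9.21 alone, 9.15 and 8.91 in B-cell co-culture, then 9.20 and 9.33 in neutrophil co-culture. The B-cell arrays were the 2 lowest, while the alone and neutrophil arrays overlapped. Neutrophil co-culture differed by 0.24 ± 0.11 from B-cell co-culture (adjusted p = 0.262) and by 0.07 ± 0.11 from culture alone, and B-cell co-culture by -0.17 ± 0.11 from culture alone.

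Il6st encodes gp130, the signalling chain shared by the IL-6 family. Its values were 9.51 and 9.34 alone, 9.53 and 9.30 in B-cell co-culture, then 9.55 and 9.63 in neutrophil co-culture. The neutrophil arrays were the 2 highest, with B-cell replicate 1 close under them. The difference was 0.18 ± 0.11 against B cells (adjusted p = 0.360) and 0.16 ± 0.11 against culture alone (adjusted p = 0.450).

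Igf1r encodes the receptor for IGF-1, a growth and survival factor of myeloma cells. It stood at 8.32 and 8.27 alone, 8.45 and 8.39 in B-cell co-culture, then 8.58 and 8.61 in neutrophil co-culture. It was the member whose 3 groups did not overlap at all, in the order alone, B cells, neutrophils. The step from alone to neutrophils was 0.30 ± 0.09, or 1.23-fold with a 95% interval from 1.07 to 1.42, and did not pass (unadjusted p = 0.00910, adjusted p = 0.152). The neighbouring steps were 0.12 ± 0.09 from alone to B cells and 0.18 ± 0.09 from B cells to neutrophils (adjusted p = 1.00 and 0.284). Its closest relative, the insulin receptor gene Insr, stood 0.20 ± 0.12 above culture alone with neutrophils (adjusted p = 0.394).

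Cxcr4 varied little. It stood at 11.72 and 11.72 alone, 11.78 and 11.59 in B-cell co-culture, then 11.73 and 11.74 in neutrophil co-culture, and the B-cell replicates were the highest and the lowest of the 6 arrays. The difference was 0.05 ± 0.10 for neutrophils against B cells and 0.01 ± 0.10 against culture alone, with a 95% interval from -0.21 to 0.24 for the second.

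**Figure D2:**
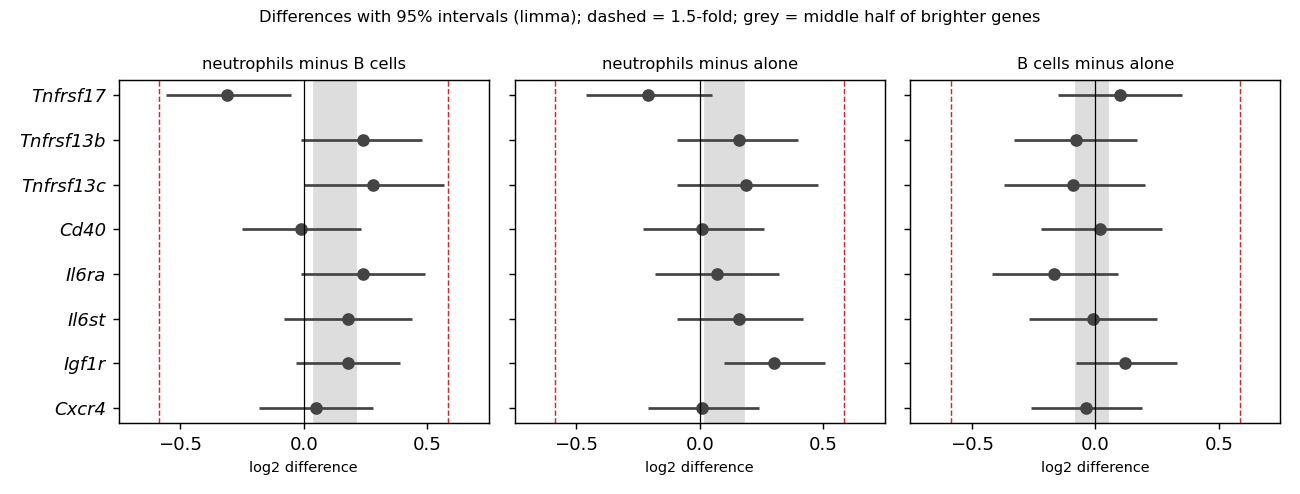
Log2 differences (x axis) of the 8 receptor genes (y axis) in the 3 comparisons, with 95% intervals from limma. Dashed lines mark 1.5-fold and the grey band the interquartile range of the brighter genes, from 0.04 to 0.21 for neutrophils minus B cells; every interval ends inside the dashed lines.

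The first comparison asked what neutrophils changed relative to the B-cell control. Of the 8 receptor genes 0 were called in limma, against 0.0496% of all 22180 genes, and 1, Tnfrsf17, had an unadjusted p under 0.05, against 20.1% of all genes. Their differences ran from -0.31 to 0.28 with a median of 0.18, 6 above and 2 below 0. Arrays did not overlap for 6 of the 8, where 56.7% of all genes did not. Of these, 5 were higher and 1 lower with neutrophils, against 30.0% and 26.7% of all genes. The shares of all genes take in dim ones, whereas 7 of the 8 are brighter genes, most of which lay above 0. No such share was taken among brighter genes alone.

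This comparison depended on which B-cell array was used. Without B-cell replicate 1 the receptor median was 0.25 and 4 genes were called: Tnfrsf13c at 0.43 (adjusted p = 0.0410), Il6ra at 0.36 (adjusted p = 0.0419) and Tnfrsf13b at 0.35 (adjusted p = 0.0462) higher, and Tnfrsf17 at -0.41 (adjusted p = 0.0382) lower with neutrophils. In that fit 24.6% of all genes were called, 11.7% higher and 12.8% lower, and the lone B-cell array was assumed to vary like the other groups. Without B-cell replicate 2 the same 4 differences were 0.13, 0.12, 0.12 and -0.20, the median was 0.09 and 0 were called (0 at an unadjusted p under 0.05). With quantile normalisation, which removes the shift of the brighter genes, the median was 0.03, and Tnfrsf13c stood at 0.13, Tnfrsf13b at 0.19, Il6ra at 0.07 and Tnfrsf17 at -0.14. Cxcr4 then stood at -0.03.

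**Figure D3:**
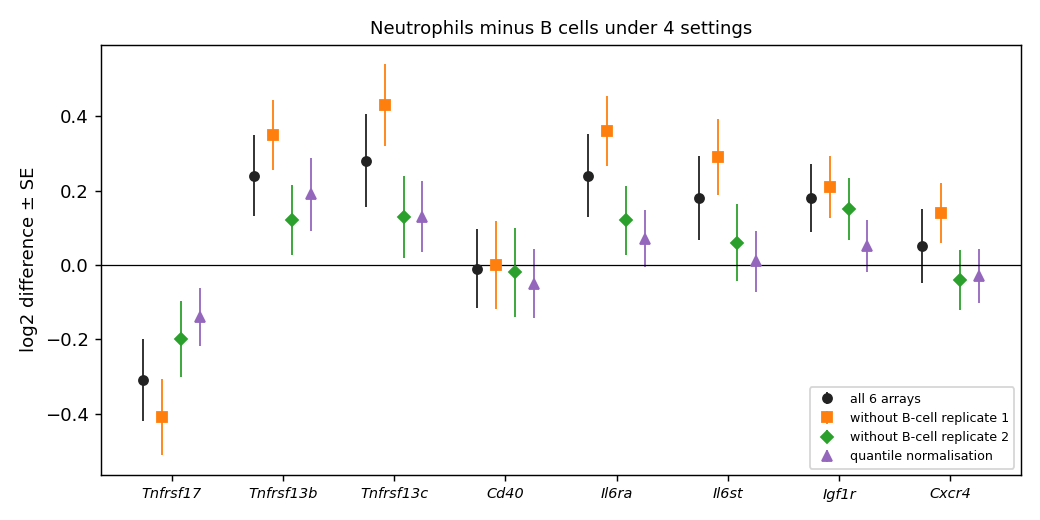
Log2 difference between neutrophil and B-cell co-culture (y axis, ± SE) of the 8 receptor genes (x axis) with all 6 arrays, without either B-cell replicate, and after quantile normalisation. Tnfrsf13c spans 0.13 to 0.43 and Tnfrsf17 -0.41 to -0.14, while Cd40 stays between -0.05 and 0.00.

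The second comparison took culture alone as the reference and shares its neutrophil arrays with the first. In limma 0 of 8 receptor genes were called, against 1.49% of all genes, and 1, Igf1r, had an unadjusted p under 0.05, against 17.7% of all genes. The differences ran from -0.21 to 0.30 with a median of 0.11, equal to that of the brighter genes, and 7 of the 8 were above 0. Arrays did not overlap for 6 of 8 genes, 5 higher and 1 lower, against 63.0% of all genes, 35.6% higher and 27.4% lower. Among the 6 was Cxcr4, whose groups were 0.01 apart. The shares of all genes again take in dim ones, and no such share was taken among brighter genes alone. With quantile normalisation the median was 0.00, Igf1r stood at 0.20 (adjusted p = 0.276) and Tnfrsf17 at -0.04, while Il6ra, Cxcr4 and Cd40 lay under 0, at -0.07, -0.05 and -0.03.

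The third comparison, B-cell co-culture against culture alone, called 0 of the 8 receptor genes and 0.00% of all genes in limma, with 0 of 8 and 3.92% of all genes at an unadjusted p under 0.05. The receptor differences ran from -0.17 for Il6ra to 0.12 for Igf1r, with a median of -0.02. Without B-cell replicate 1 the median was -0.13 and Il6ra stood at -0.29 (unadjusted p = 0.0213, adjusted p = 0.275), with 0 genes called and 3434 of all genes at an unadjusted p under 0.05. Without B-cell replicate 2 the median was 0.04, Il6ra stood at -0.05 and Tnfrsf13c at 0.06, on the other side of 0 from its -0.09 with both arrays, again with 0 genes called and 2188 at an unadjusted p under 0.05, against 869 with both. With all arrays, groups did not overlap for Il6ra and Igf1r only, 1 higher and 1 lower, against 27.1% of all genes, 13.5% in each direction.

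The ligands were looked for in the same RNA. Tnfsf13b, the gene of BAFF, stood at 6.42 to 6.81 and below the median of all 6 arrays, and the APRIL gene was not analysed here. Il6, at 4.23 to 4.71, and Cd40lg, at 4.61 to 5.09, lay below the lower quartile of every array, so neither was shown to exceed background. Igf1 stood at 7.20 and 7.33 alone, 7.20 and 7.30 in B-cell co-culture, then 6.88 and 6.95 in neutrophil co-culture. Both neutrophil arrays were the lowest, by -0.35 ± 0.10 against culture alone (adjusted p = 0.135) and -0.34 ± 0.10 against B cells (adjusted p = 0.168), and all 6 values lay below the median of their array. Igf2 stood at 6.93 to 7.20, Cxcl12 at 7.23 to 7.57 and Ackr3, the scavenging receptor for CXCL12, at 7.76 to 7.92, and none of these ligand and co-receptor genes passed.

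Signalling genes around the receptors were read in 6 lists of 125 measured genes in all, without the receptors themselves. Fbxo24 is among them only because a synonym match took it in place of Chuk. In limma with all 6 arrays 0 were called in each comparison. At an unadjusted p under 0.05 there were 23 genes (18.4%) in the first comparison, 15 (12.0%) in the second and 1 (0.800%) in the third. These shares stand beside 20.1%, 17.7% and 3.92% of all genes. The first comparison, its counts of called genes included, again depended on the B-cell array. The median of the 125 genes was 0.10 with both, 0.14 without replicate 1 and 0.03 without replicate 2. Without replicate 1, Map3k14 stood at 0.39, Birc3 at 0.39, Clcf1 at 0.43, Socs1 at 0.61, Foxo3 at 0.37 and Grk5 at 0.63. Igf1, Rgs1 and Tnfrsf11b then stood at -0.38, -0.42 and -0.65. Without replicate 2 the same genes, in that order, stood at 0.24, 0.16, 0.43, 0.32, 0.22, 0.45, -0.29, -0.35 and -0.26. Igfbp3 moved the other way, to -0.25 without replicate 1 and -0.41 without replicate 2. In the third comparison the median of the 125 genes was 0.00 with both B-cell arrays, -0.05 without replicate 1 and 0.04 without replicate 2. The medians of the 6 lists in the first comparison ran from 0.01 to 0.27 without replicate 1 and from -0.03 to 0.09 without replicate 2.

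Among the 21 genes of the TRAF and NF-kB list the median difference was 0.14 for neutrophils against B cells, with 19 above 0. Against culture alone it was 0.10, with 18 above 0. The 21 include Fbxo24, which a synonym match took in place of Chuk, so these counts and medians also rest on a gene not chosen for the list. The brighter genes had medians of 0.13 and 0.11 in the same comparisons, and most of them lay above 0. Map3k14, the kinase NIK that starts the alternative NF-kB pathway, had values of 7.46 and 7.50 alone, 7.54 and 7.40 in B-cell co-culture, then 7.73 and 7.84 in neutrophil co-culture. Its neutrophil arrays were the 2 highest, by 0.32 ± 0.10 over B cells and 0.30 ± 0.10 over culture alone (adjusted p = 0.180 in both). The NF-kB subunit gene Rela stood 0.26 ± 0.10 above culture alone (adjusted p = 0.232). Birc3, the gene of the ubiquitin ligase cIAP2, stood at -0.18 ± 0.11 with B cells against culture alone, -0.30 without B-cell replicate 1 and -0.06 without replicate 2.

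The list around BAFF and APRIL held 5 measured genes, the BAFF gene Tnfsf13b among them. For neutrophils against B cells the median of the 5 was 0.11 with both B-cell arrays, 0.27 without replicate 1 and -0.01 without replicate 2. The protease gene Furin and the proteoglycan gene Sdc1, which binds APRIL, stood 0.14 ± 0.11 and 0.11 ± 0.11 higher with neutrophils than with B cells. B-cell replicates 1 and 2 stood at 8.74 and 8.47 for Furin and at 8.61 and 8.38 for Sdc1. The neutrophil arrays stood at 8.75 and 8.74 for Furin and at 8.53 and 8.67 for Sdc1. Caml, whose product binds TACI, and Tnfrsf12a, the TWEAK receptor gene, stood 0.17 ± 0.17 and 0.16 ± 0.14 above culture alone. None of these 4 differences had an unadjusted p under 0.05.

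Among the 28 genes of the IL-6 family and JAK-STAT3 signalling the medians were 0.08 and 0.07. Clcf1, a cytokine that signals through gp130, had 7.92 and 7.97 alone, 7.86 and 7.86 in B-cell co-culture, then 8.31 and 8.27 in neutrophil co-culture. This gap of 0.43 ± 0.09 over B cells and 0.34 ± 0.09 over culture alone did not pass (adjusted p = 0.132 and 0.113). Socs1, a feedback inhibitor of JAK kinases, stood 0.47 ± 0.12 above B cells (adjusted p = 0.147) and 0.27 ± 0.12 above culture alone (adjusted p = 0.278). Adam17, the protease that sheds the IL-6 receptor, stood 0.23 ± 0.10 above culture alone, and Bcl6 0.13 ± 0.09 higher with B cells than alone.

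Among the 27 genes of IGF and insulin signalling the medians were 0.08 and 0.06. The binding protein gene Igfbp3 stood at -0.33 ± 0.11 for neutrophils against B cells (adjusted p = 0.187), and Pdpk1, the kinase that activates AKT, 0.20 ± 0.10 above culture alone (adjusted p = 0.345). With B cells, the binding protein gene Igfbp4 differed by 0.24 ± 0.11 and Foxo3, a transcription factor that AKT inhibits, by -0.21 ± 0.10 from culture alone.

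Among the 23 genes of CXCL12 and CXCR4 signalling, 19 lay above 0 in each of the 2 neutrophil comparisons and 18 in both. Their medians of 0.10 and 0.11 stand beside 0.13 and 0.11 for the brighter genes, most of which also lay above 0. Grk5, a kinase that phosphorylates activated receptors, had 7.25 and 6.87 alone, 7.05 and 6.87 in B-cell co-culture, then 7.46 and 7.52 in neutrophil co-culture, 0.54 ± 0.14 over B cells (adjusted p = 0.147) and 0.43 ± 0.14 over culture alone (adjusted p = 0.167). Rgs1, which dampens G protein signalling of chemokine receptors, stood at -0.39 ± 0.10 and -0.32 ± 0.10 (adjusted p = 0.148 and 0.165), below the lower quartile of all arrays. That quartile was itself lowest on the neutrophil arrays. With B cells, the arrestin gene Arrb2 stood 0.16 ± 0.09 above and Mif, a further CXCR4 ligand, -0.14 ± 0.10 from culture alone.

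Among the 22 other TNF receptor superfamily genes the medians were -0.02 and 0.04, and 8 and 14 genes lay above 0. Tnfrsf11b, the decoy receptor osteoprotegerin, stood at -0.46 ± 0.15 against B cells (adjusted p = 0.193), -0.65 without B-cell replicate 1 and -0.26 without replicate 2, and Ltbr, the lymphotoxin receptor, at -0.23 ± 0.09 against B cells and -0.22 ± 0.09 against culture alone. Tnfrsf1a, a TNF receptor, stood 0.33 ± 0.15 above culture alone, below the lower quartile of 5 arrays. Tnfrsf11a, the gene of RANK, and Tnfrsf8, the gene of CD30, stood 0.24 ± 0.09 and 0.22 ± 0.11 higher with B cells than alone.

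**Figure D4:**
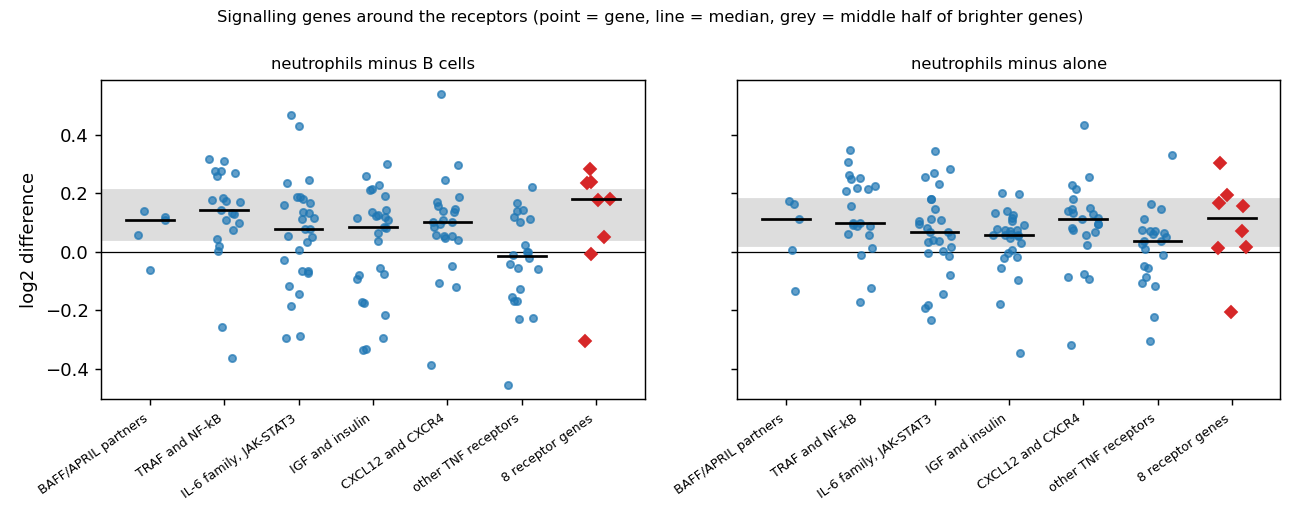
Log2 differences (y axis) of the genes on the 6 signalling lists and of the 8 receptor genes (x axis) for neutrophils minus B cells and neutrophils minus culture alone, 1 point per gene, a line at each median and a grey band for the interquartile range of the brighter genes. The medians of the first 5 lists lie between 0.06 and 0.14 and that of the other TNF receptors at -0.02 and 0.04.

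The receptor genes did not all share 1 profile. Over the 6 arrays, which share the shift of the brighter genes, Tnfrsf13b and Tnfrsf13c correlated at r = 0.97 and Il6ra with them at 0.90 and 0.93. Tnfrsf17 ran against all 3, at -0.88 to -0.93, but it is dim on all 6 arrays, and the lower quartile fell where brighter genes rose. Cd40 correlated with no other receptor gene beyond 0.39 in size. Among 10015 brighter genes, those nearest in profile were Akt1s1 and Scp2 for Tnfrsf13b, Arfgef2 and Limd1 for Tnfrsf13c, Slc25a45 and Srf for Il6ra, Cdkn3 and Scyl3 for Il6st, Dennd4c and Med23 for Igf1r, Idh3b and Tmem106b for Cxcr4, and Map1b and Ccl11 for Tnfrsf17, each at r from 0.990 to 0.998. For Cd40 they were Ccdc184 at 0.954 and Acad10 at 0.935. Such likeness was common for some receptors and rare for others: 5.19% of these genes reached r = 0.95 with Tnfrsf13c, 5.14% with Tnfrsf13b, 3.72% with Il6ra, 1.42% with Igf1r and 0.00999%, or 1 gene, with Cd40.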

How the data were processed

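The authors deposited RMA values on a log2 scale, 1 for each probe set and array. RMA is named in the submitters' processing notes; software version, array model and annotation build are not given in the sources used here, and the log2 scale was read from the values (3.04 to 14.03). Of 41345 probe sets, 23521 name 1 gene in the platform annotation, 1814 several and 16010 none here. The brightest single-gene probe set over 6 arrays stood for a gene, leaving 22180 genes. Group means were fitted to all genes and arrays with limma 3.58.1 in R 4.3.3 (eBayes, two-sided, 3 residual and 5.55 prior degrees of freedom, Benjamini-Hochberg over all genes, adjusted p threshold 0.05); the procedure was tested on simulated data. The number of arrays limits precision, and no detection call was given. The receptor genes, lists and rules were chosen with earlier results of these data known. Named besides the receptors were their ligands and the 2 genes with the smallest p per signalling list and comparison; profiles were compared by Pearson correlation among brighter genes, without predicted, olfactory, immunoglobulin and small RNA genes. Marker lists covered plasma cells, mature B cells, neutrophils, monocytes, T and NK cells and dendritic cells. Alternatives were quantile normalisation, median centring, brighter genes only, trend and robust eBayes, averaged or all probe sets, 4-array fits, the replicate number as a block, a threshold of 0.1 and each array left out. The fits of the signalling lists without either B-cell array were added after seeing the data. Promoter sequences are RefSeq's (GRCm38.p6). Plots used matplotlib 3.10.9.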

Additional observations from a re-analysis of the deposited data

How the results depend on the processing

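Of the 15 alternatives, the 0.1 threshold is no refit, and leaving out an array of the group not compared gives the same values as the 4-array fit. Receptor genes called were 0 under each alternative in 2 comparisons, and for neutrophils against B cells 0 under each except without B-cell replicate 1, which gave 4, so leaving out each array gave 0 to 4 there. No called difference reversed, and each uncalled one that took the other sign was at most 0.1 in size with all arrays. The interval bounds are less firm: over the alternatives 4 to 8 of the 8 lay within 1.5-fold for neutrophils against B cells and 5 to 8 against culture alone, the furthest bound being 1.67-fold without neutrophil replicate 1. The count over all genes moved far more. For neutrophils against B cells, 11 (7 higher, 4 lower) became 30 at a threshold of 0.1, 1 with quantile normalisation, 62 with median centring (18 higher, 44 lower), 91 among brighter genes (41 and 50), 33 with trend and robust eBayes (13 and 20), 0 in limma over all 41345 probe sets (3037 at an unadjusted p under 0.05), 1 with only the 4 arrays compared, and 1 to 5453 with each array left out, the highest without B-cell replicate 1 and the lowest without either alone array or B-cell replicate 2. For neutrophils against culture alone, 331 (29 higher, 302 lower) became 750, 22 (7 and 15), 555, 90 (21 and 69), 353, 0 (2860 at an unadjusted p under 0.05) and 1338 in the same order, and 5 to 1338 with each array left out, the lowest without alone replicate 1. For B cells against culture alone, 0 became 1 among brighter genes and 1 with trend and robust eBayes. The replicate numbers do not pair the arrays (correlations of deviations -0.07, 0.07 and -0.15); the replicate block gave 9, 373 and 0 genes, and 0 receptor genes in each comparison. The causes of these movements were not tested. The 2 arrays a group, and dim signal for Tnfrsf17, limit what could be seen.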
